A study of Mus musculus with 250 samples.

Results

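Mt1, Mt2 and Mt3 are the metallothionein genes with reads in most of the 250 single cells of this series. They were chosen by name as rows of the raw count table, with their levels, shares and correlations in these same cells already known. They are 3 of the table's 24490 rows, and 16367 rows hold a read in some cell. All values of the 3 genes below come from the cells that chose them, so they are a description and carry no test. A row for Mt4, the remaining mouse metallothionein gene of the cluster, is given beside them.

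The cells are titled brain astrocytes and came from adult C57BL/6 mice, about 3 months old by the series' design text. All of them have the genotype SM22-Cre;Rosa26-stop-tdTomato, in which the promoter of the smooth muscle gene Tagln drives Cre and Cre switches on a red fluorescent protein. FACS placed single cells into wells (the sources used here do not give the gate), and each was sequenced as full-length polyadenylated cDNA by Smart-seq2. No animal is named, so the 250 cells form 1 group without known replicates, and the prefixes Brain.VSMC2 (162 cells, called plate 2) and Brain.VSMC3 (88 cells, called plate 3) are used as technical batches.

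Metallothioneins are very small proteins in which cysteines hold zinc and copper ions in clusters. Mt1 and Mt2 are made in many tissues and are induced by metals, through the zinc-sensing factor MTF-1 (gene Mtf1) at metal response elements, and by glucocorticoids and cell stress. In the brain, astrocytes are a main source of both. Mt3 is enriched in the brain, was first described as a growth inhibitory factor, and responds less to metals than Mt1 and Mt2. Mt4 belongs to stratified epithelium.

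The 4 genes lie side by side on the plus strand of chromosome 8 in GRCm38, in the order Mt4, Mt3, Mt2, Mt1, within 43131 bp. Mt4 was placed at chr8:94137197-94139031, Mt3 at chr8:94152607-94154146, Mt2 at chr8:94172664-94173568 and Mt1 at chr8:94179082-94180327. The gaps between them are 13575 bp from Mt4 to Mt3, 18517 bp from Mt3 to Mt2 and 5513 bp from Mt2 to Mt1. The stretches just before the annotated starts of Mt1, Mt2 and Mt3 are shown because the 3 genes varied together in these cells. They are from RefSeq on GRCm38.p6, on the plus strand, 5′ to 3′, at chr8:94178839-94179081 for Mt1, chr8:94172368-94172617 for Mt2 and chr8:94152357-94152606 for Mt3. Capitals mark each match to the core of the metal response element, TGCACNC or TGCGCNC on either strand.
Mt1: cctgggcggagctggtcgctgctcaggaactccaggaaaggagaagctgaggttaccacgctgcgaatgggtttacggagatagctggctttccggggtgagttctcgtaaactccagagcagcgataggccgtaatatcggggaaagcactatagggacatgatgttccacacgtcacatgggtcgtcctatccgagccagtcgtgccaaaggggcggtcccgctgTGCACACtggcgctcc
Mt2: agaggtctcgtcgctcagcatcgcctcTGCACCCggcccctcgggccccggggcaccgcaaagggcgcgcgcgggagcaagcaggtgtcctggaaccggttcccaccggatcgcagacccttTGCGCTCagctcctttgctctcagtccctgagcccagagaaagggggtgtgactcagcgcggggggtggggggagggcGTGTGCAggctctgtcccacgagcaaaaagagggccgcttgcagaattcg
Mt3: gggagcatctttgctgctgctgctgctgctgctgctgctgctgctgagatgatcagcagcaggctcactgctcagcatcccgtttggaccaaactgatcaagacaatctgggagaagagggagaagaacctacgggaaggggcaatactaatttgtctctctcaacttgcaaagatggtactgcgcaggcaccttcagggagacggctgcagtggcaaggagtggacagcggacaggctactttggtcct

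The 4 genes all have matches to this core near their starts. In the window from 250 bases before to 50 after the RefSeq start, Mt1 had 3 matches, Mt2 had 4, and Mt3 and Mt4 had 1 each. Of 32851 windows of the same length and place, 25.7% held at least 1 match, 7.11% at least 2 and 0.517% at least 4. GENCODE also gives these genes later starts, the last of which lies 152 bp downstream of the RefSeq start for Mt1, 242 bp for Mt2 and 139 bp for Mt3. Around those last starts, a window of the same length held 5 matches for Mt1, 4 for Mt2 and 3 for Mt3. The shares of all windows given here are for RefSeq starts, and none was counted for last starts of other genes. At the last start of Mt1 the matches, as read on the plus strand, were TGCACAC at 175 bases before it, TGCACTC at 150, TGCGCTC at 132, GGGTGCA at 68 and TGCGCCC at 54. The antioxidant response element TGACNNNGC, searched on both strands, was found 1 time in the RefSeq window of Mt2 and 1 time near the last start of Mt1, and 12.4% of all windows hold it. The glucocorticoid receptor half-site AGAACA had 0 matches in all these windows of Mt1, Mt2 and Mt3, against 19.0% of all windows with at least 1. A match describes the letters and does not show that a factor binds there.

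The median cell had 282290 counted reads (range 102161 to 564958), with 256247 on plate 2 and 391072 on plate 3. Smart-seq2 has no molecular identifiers, so PCR copies of 1 molecule count as several reads. Intervals below are for numbers of cells, treat the cells as independent and do not cover differences between animals. Of 10 astrocyte markers, 9 reached detection in 50% of the cells or more, and their summed level ran from 13151 to 53323 CPM (reads per 1000000 counted reads of the cell). Of the markers of other cell types, the 10 oligodendrocyte genes summed to a median of 806 CPM, with Cnp detected in 191 cells, and the other lists had medians between 0 and 49.0 CPM. Tagln, whose promoter drives the Cre, was detected in 5 cells at 2.52 ± 16.1 CPM on average (SD over the 250 cells). In 47 cells at least 3 markers of 1 other cell type were detected, and the pair correlations are also given without them.

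Mt1 and Mt3 were present in every cell and Mt2 in nearly every cell. At 10 CPM or more, Mt1 and Mt3 were each detected in 250 of 250 cells (100%, exact 95% interval 98.5 to 100%). Mt2 was detected in 246 of 250 (98.4%, 96.0 to 99.6%), 159 of 162 on plate 2 and 87 of 88 on plate 3. Over the 16367 genes with reads, 5.92% reached this threshold in 50% of the cells or more. Mt4 had 1 read in 1 cell and none in the other 249. That cell was below the threshold, and for 0 of 250 cells the exact interval reaches up to 1.46%, if cells are taken as independent.

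Mt1 had a lowest level of 110, a median of 919 and a highest of 4036 CPM, and its mean was 1053 ± 610 CPM (SD over cells, n = 250). Mt2 ran from 0 through a median of 263 to 1506 CPM, with a mean of 311 ± 233 CPM. Mt3 ran from 31.4 through a median of 394 to 2603 CPM, with a mean of 474 ± 307 CPM. No cell was without Mt1 or Mt3 reads, the lowest read counts being 32 and 9, while 2 cells had no Mt2 read. The middle of the cells was narrow beside these extremes, since the upper quartile was 2.18 times the lower for Mt1, 2.58 times for Mt2 and 2.34 times for Mt3.

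The plates overlapped for each gene, and plate 2 reached lower and higher than plate 3 for Mt1 (110 to 4036 against 218 to 3026 CPM) and Mt3 (31.4 to 2603 against 141 to 1539 CPM). The mean of Mt1 was 994 ± 592 CPM over the 162 cells of plate 2 and 1160 ± 633 CPM over the 88 cells of plate 3 (SD). The mean of Mt2 was 299 ± 221 and 333 ± 254 CPM, and that of Mt3 was 448 ± 315 and 523 ± 285 CPM. All 3 means were higher on plate 3, by 0.22, 0.16 and 0.22 on the log2 scale for Mt1, Mt2 and Mt3. These differences were smaller than the SD between cells and lay inside the middle 50% of 6381 genes, whose log2 ratios had quartiles of -0.32 and 0.30.

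**Figure D1:**
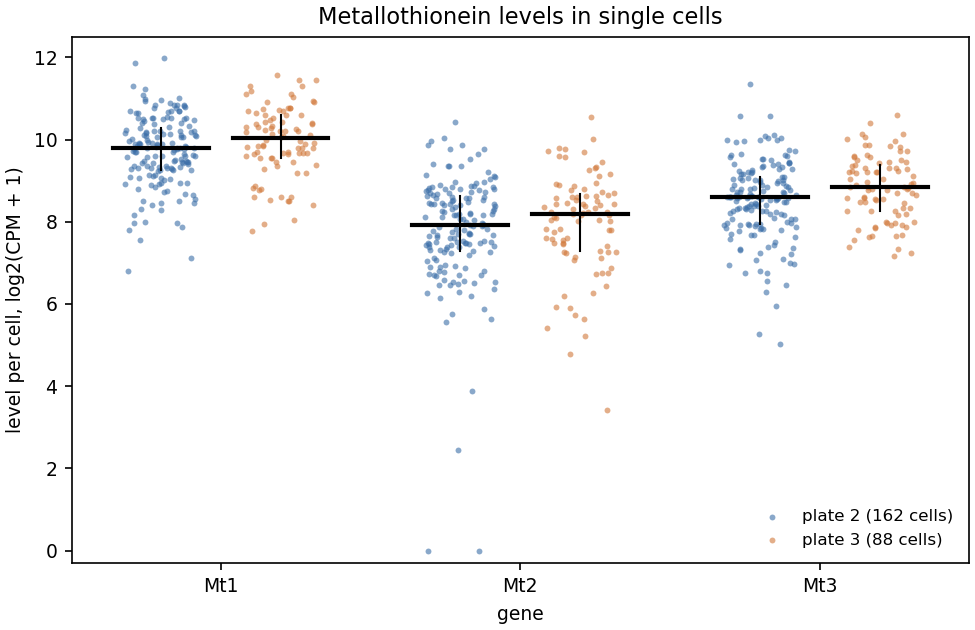
Level of each metallothionein gene in each cell, as log2(CPM + 1), by plate; points are cells, the thick bar is the median and the thin line the quartiles. The plates overlap for all 3 genes, and the points of Mt2 at 0 are the 2 cells without a read.

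The 3 transcripts were found together in 246 of 250 cells at 10 CPM. The 4 remaining cells all had Mt1 and Mt3 without Mt2. On plate 3, 1 of them had 182 reads of Mt1, 4 of Mt2 and 229 of Mt3. On plate 2, the other 3 had 173, 1 and 55 reads, 40, 0 and 11 reads, and 203, 0 and 43 reads of Mt1, Mt2 and Mt3. Mt1 in these cells was between 137 and 959 CPM and Mt3 between 37.7 and 551 CPM. Only the cell with 40, 0 and 11 reads was below the lower quartile of all 3 genes. They held 211690 to 415294 reads in all, so none was among the shallowest cells. At the stricter threshold of 50 CPM, all 3 genes were detected in 238 cells, Mt1 and Mt3 alone in 10, Mt1 and Mt2 alone in 1, and Mt1 alone in 1.

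The summed level of the 3 genes was 1672 CPM in the median cell, 1129 and 2334 CPM at the quartiles, and ran from 175 to 6756 CPM. The cell with the highest sum, on plate 2, had 4036 CPM of Mt1, 118 of Mt2 and 2603 of Mt3. The next highest, also on plate 2, had 3714 CPM of Mt1, 1376 of Mt2 and 985 of Mt3. Both the highest Mt1 and the highest Mt3 level of all cells thus came from 1 cell whose Mt2 level was below the lower quartile of 154 CPM. That cell had only 1282 genes detected, where the median on plate 2 was 2367. The cell with the lowest sum had 137 CPM of Mt1, 0 of Mt2 and 37.7 of Mt3, and it is 1 of the 4 cells without detected Mt2.

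Scaled by the length of all exons or of the full-span mRNA, Mt1 was the most abundant of the 3 transcripts in most cells. How far it led, and the order of Mt2 and Mt3, depended on which length was used. The union of all annotated exons is 1246 bp for Mt1, 588 bp for Mt2 and 1066 bp for Mt3, and it includes stretches that only some transcripts hold. The spliced transcript that spans the whole gene, called the full-span mRNA here, is 549, 511 and 536 bp long. Per kilobase of the full-span mRNA, the mean levels were 1918 ± 1112 CPM per kb for Mt1, 608 ± 456 for Mt2 and 885 ± 572 for Mt3 (SD between cells, n = 250). Per kilobase of all exons, they were 845, 528 and 445 CPM per kb.

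Each cell's shares of the summed, length-scaled level show the same dependence. With all exons as length, the median share was 46.2% for Mt1, 27.7% for Mt2 and 24.6% for Mt3. With the full-span mRNA, a length chosen after the data were seen, it was 56.0%, 16.9% and 25.8%. The share of Mt1 was therefore the highest of the 3 under both lengths. With each gene's longest transcript as length (1085, 511 and 536 bp), the medians were 39.2%, 23.6% and 36.0%. Under that length Mt1 and Mt3 were close, and numbers of cells are not given for it. By cell, Mt1 was highest in 194 of 250 cells (77.6%, exact 95% interval 71.9 to 82.6%) per kilobase of all exons and in 229 (91.6%, 87.4 to 94.7%) per kilobase of the full-span mRNA. Mt3 exceeded Mt2 in 182 of 250 cells by the full-span mRNA but in only 110 by all exons, so no order of these neighbours is given.

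The shares were alike on the plates. With all exons as length, the median share of Mt1 was 45.7% on plate 2 and 46.9% on plate 3, that of Mt2 was 28.1% and 27.6%, and that of Mt3 was 24.3% and 25.1%. Single cells varied far more than the plates did. Over cells the share of Mt1 ran from 16.5 to 80.2%, that of Mt2 from 0 to 65.4% and that of Mt3 from 1.72 to 65.9%.

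**Figure D2:**
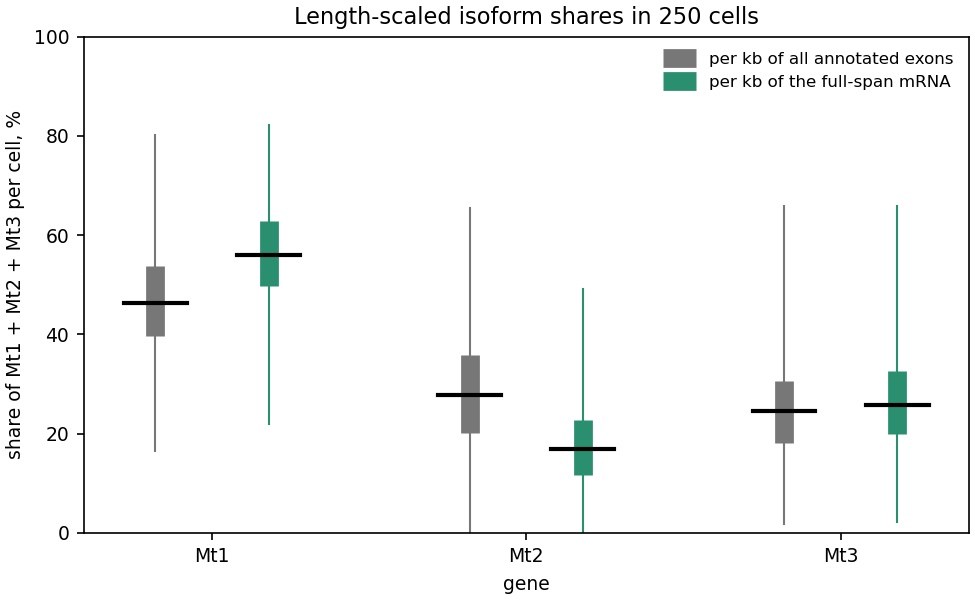
Share of each gene in the summed, length-scaled level of Mt1, Mt2 and Mt3 per cell, in percent, for 250 cells. The lengths shown are all exons and the full-span mRNA. Boxes are quartiles, black bars medians and thin lines the full range. Mt1 has the highest median under both lengths, while Mt2 is above Mt3 under the length of all exons (27.7% and 24.6%) and below it under the full-span mRNA (16.9% and 25.8%).

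The 3 genes varied less between cells than most genes of the same level. The coefficient of variation (SD divided by mean) was 0.595 on plate 2 and 0.545 on plate 3 for Mt1, 0.740 and 0.763 for Mt2, and 0.704 and 0.546 for Mt3. Relative to a trend of squared coefficient of variation on mean level, the ratio was 0.610 and 0.584 for Mt1, 0.337 and 0.414 for Mt2, and 0.436 and 0.317 for Mt3, where 1 lies on the trend. None of the 3 was above the trend on either plate. Of 6381 genes, 35.7% were above it on both plates, and the share above it on neither is not given. The 6381 genes with a mean of at least 20 CPM on both plates were ordered by the lower of the plates' ratios to the trend. From the highest down, Mt1 was 5553rd, Mt2 6232nd and Mt3 6254th.

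The 3 genes varied together from cell to cell. Between Mt1 and Mt2, Spearman's rho over cells was 0.521 over the 162 cells of plate 2 and 0.739 over the 88 cells of plate 3. Between Mt1 and Mt3 it was 0.574 and 0.519. Between Mt2 and Mt3 it was lower, 0.397 and 0.351. These correlations are descriptions without a p, since cells are not replicates and the values of a cell share its amplification, its sequencing depth and the total by which they are scaled. In a principal component analysis of the 3 genes, the first component held 64.6% of the variance on plate 2 and 68.2% on plate 3.

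**Figure D3:**
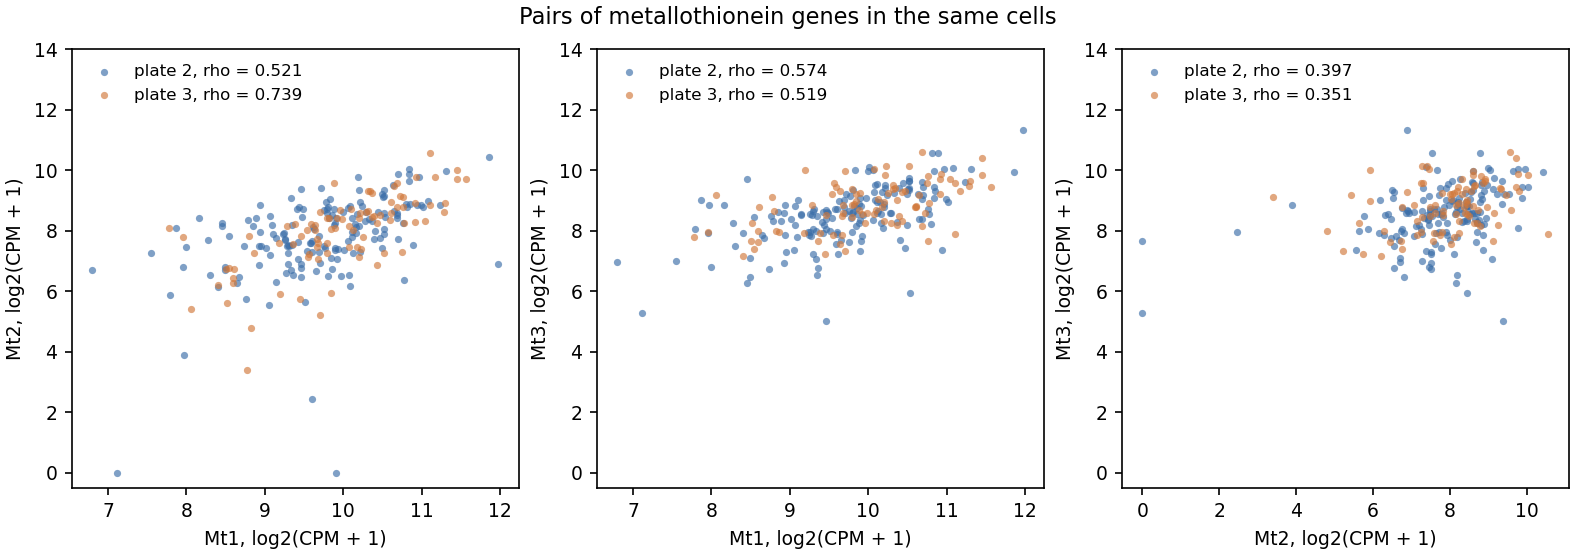
Levels of each pair of metallothionein genes in the same cell, as log2(CPM + 1), with cells coloured by plate and Spearman's rho of each plate. Levels rise together in all 3 panels, most closely for Mt1 and Mt2 on plate 3 (0.739) and least for Mt2 and Mt3 on plate 3 (0.351).

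For scale, all pairs of genes were ordered in the same way. Of 20355390 pairs that can be made from the 6381 genes, 100 (0.000491%) had a rho of at least 0.3 on both plates. All 3 metallothionein pairs are among these 100. Only 969 genes were detected at 10 CPM in 50% of the cells or more, so most of the 6381 genes were sparser than the members. The pairs were not matched for level or detection. Ordered by the lower rho of the plates, the pair of Mt1 and Mt2 was 3rd, the pair of Mt1 and Mt3 was 4th and the pair of Mt2 and Mt3 was 46th. The pairs before them were E030003E18Rik with Aldh1a1 and Flad1 with Lenep. The 100 pairs involve 82 genes, with Apoe in 12 pairs, Mt3 in 4, Mt1 in 3 and Mt2 in 2.

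Adjustment for depth moved these values little. Given the ranks of total reads and genes detected, rho was 0.517 on plate 2 and 0.742 on plate 3 for Mt1 and Mt2, 0.549 and 0.500 for Mt1 and Mt3, and 0.392 and 0.345 for Mt2 and Mt3. The rho of each gene with total reads lay between -0.145 and 0.052 on the plates. With genes detected it lay between 0.148 and 0.214 on plate 2 and between -0.178 and -0.046 on plate 3, opposite in sign.

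The share of reads in short genes did move with all 3. Genes with under 1 kb of exon, the metallothioneins and Rn45s left out, held a median of 0.588% of the reads, with a range over cells of 0.254 to 1.77%. The rho of this share with Mt1 was 0.382 on plate 2 and 0.312 on plate 3, with Mt2 0.241 and 0.161, and with Mt3 0.459 and 0.397. With this share adjusted for as well, an adjustment chosen after the data were seen, rho was 0.475 and 0.738 for Mt1 and Mt2, 0.461 and 0.425 for Mt1 and Mt3, and 0.329 and 0.307 for Mt2 and Mt3. All 6 values fell from those given depth alone, by less for Mt1 and Mt2 than for the pairs with Mt3.

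The rho of Mt2 and Mt3 fell once Mt1 was held constant, and its sign then differed between the plates. The pairs with Mt1 kept a positive rho. In this adjustment, which leaves out total reads and genes detected, rho of Mt2 and Mt3 was 0.140 on plate 2 and -0.056 on plate 3. With Mt3 held constant, rho of Mt1 and Mt2 was still 0.390 and 0.696. With Mt2 held constant, rho of Mt1 and Mt3 was still 0.469 and 0.411. Without the 47 cells with markers of another cell type, the unadjusted rho was 0.532 and 0.721 for Mt1 and Mt2, 0.566 and 0.491 for Mt1 and Mt3, and 0.446 and 0.340 for Mt2 and Mt3, on plate 2 and plate 3.

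**Figure D4:**
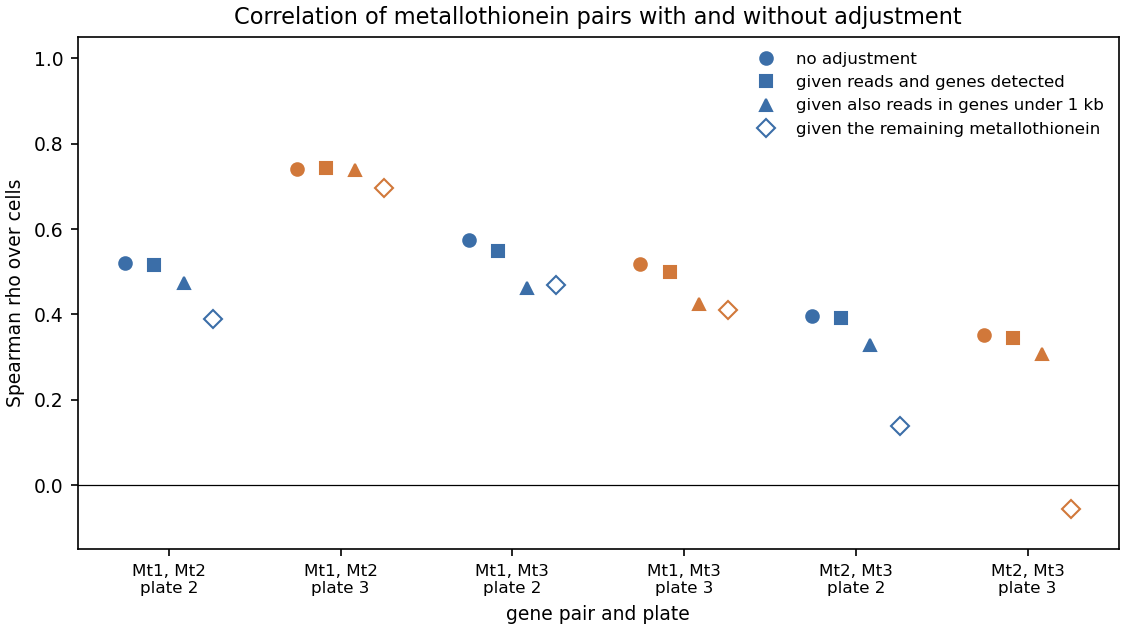
Spearman's rho of each metallothionein pair on each plate, without adjustment, given total reads and genes detected, given also the share of reads in genes under 1 kb, and given the remaining metallothionein. Every point is above 0 except Mt2 and Mt3 on plate 3 given Mt1 (-0.056).

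Among all genes, the nearest to each metallothionein were mainly the others. Over 6380 other genes ordered by the lower rho of the plates, Mt2 and Mt3 were 1st and 2nd for Mt1, Mt1 and Mt3 were 1st and 2nd for Mt2, and Mt1 and Mt2 were 1st and 3rd for Mt3. A rho of at least 0.2 on both plates was reached by 10 genes with Mt1 (0.157%), 3 with Mt2 (0.047%) and 15 with Mt3 (0.235%), the other metallothioneins included. For comparison, the central 95% of all genes had a rho with Mt1 between -0.152 and 0.181 on plate 2 and between -0.243 and 0.189 on plate 3.

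For Mt1, the nearest gene outside the family was Dbi, which codes for an acyl-CoA binding protein abundant in glia. Its rho with Mt1 was 0.357 on plate 2 and 0.444 on plate 3, with Mt3 0.410 and 0.330, and with Mt2 only 0.207 and 0.173. Next came Cox8a, a subunit of cytochrome c oxidase (0.248 and 0.261), Rn45s, the precursor of ribosomal RNA, whose many copies make its reads uncertain (0.240 and 0.395), and Pdcd4, an inhibitor of translation (0.233 and 0.253). Glul, the glutamine synthetase of astrocytes, followed with 0.341 and 0.226. The last of the first 10 were Cox6c, another subunit of cytochrome c oxidase (0.244 and 0.225), Atp5k, a subunit of ATP synthase (0.274 and 0.212), and Ubxn1.

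The gene most like Mt3 after Mt1 was Cox8a, with 0.390 on plate 2 and 0.425 on plate 3. Further genes near Mt3 were Kcnk1, a potassium channel (0.347 and 0.277), Chchd10, a mitochondrial protein (0.305 and 0.275), Uqcr10, a subunit of the cytochrome bc1 complex (0.305 and 0.268), and Ckb, the brain creatine kinase (0.268 and 0.252). Atp5e, a small subunit of ATP synthase, and Igfbp2, which binds insulin-like growth factors, completed the first 10 with values between 0.218 and 0.238. Mt1 and Mt3 had 3 genes in common among their first 10, namely Cox8a, Dbi and Mt2. Some of these near genes are short themselves, with 619 bp of exon for Cox8a, 584 bp for Uqcr10 and 616 bp for Atp5k. Of genes with a known length outside the family at 0.2 or more on both plates, 2 of 7 with Mt1 were under 1 kb. With Mt3 it was 2 of 12, against 1.04% of all genes. The order was not adjusted for the share of reads in short genes.

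Mt2 had few genes close to it. Beyond Mt1 and Mt3, Sod2, the manganese superoxide dismutase of mitochondria, was the only gene with at least 0.2 on both plates (0.245 and 0.217). Brinp3 had 0.199 and 0.255, and Slc25a3, the mitochondrial phosphate carrier, had 0.177 and 0.199. Ate1, Fmr1, Metap2 and Col4a2 were also among the first 10, with the lower value of each between 0.173 and 0.179. Values of this size in sparse counts are weak, and apart from the family no gene was shared with the first 10 of Mt1 or Mt3.

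**Figure D5:**
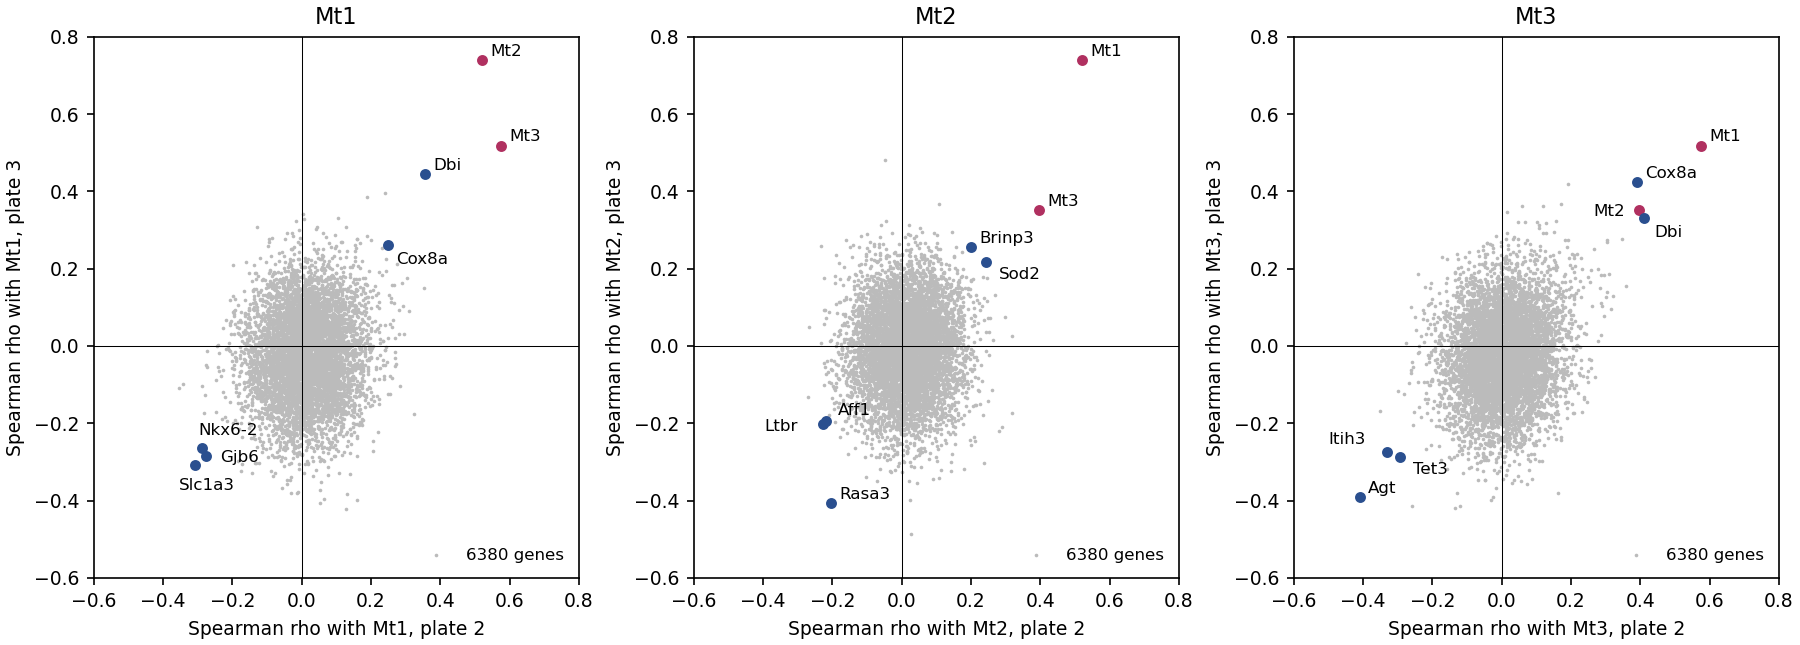
Spearman's rho of each of 6380 genes with Mt1, Mt2 and Mt3, plate 2 on the x axis and plate 3 on the y axis; metallothioneins are red, and the nearest and most opposite genes blue. The family members lie at the upper right of the cloud in each panel, with Dbi and Cox8a beside them for Mt3.

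In the opposite direction, the 3 genes with the lowest rho were not the same for each member. For Mt1 they were Slc1a3, a glutamate transporter of astrocytes (-0.306 on plate 2 and -0.308 on plate 3), Gjb6, an astrocyte gap junction protein (-0.276 and -0.285), and Nkx6-2, a homeobox factor (-0.286 and -0.264). For Mt3 they were Agt, which codes for angiotensinogen (-0.409 and -0.390), Tet3, a DNA demethylation enzyme (-0.292 and -0.287), and Itih3, a gene of hyaluronan binding (-0.332 and -0.275). For Mt2 they were Rasa3 (-0.204 and -0.406), Ltbr (-0.228 and -0.203) and Aff1 (-0.219 and -0.194). A rho of -0.2 or less on both plates was found for 3 of 6380 genes with Mt1 (0.047%), 2 with Mt2 (0.0313%) and 8 with Mt3 (0.125%). Agt, the gene most opposite to Mt3, was at -0.342 and -0.098 with Mt1 and at -0.204 and -0.095 with Mt2. The genes given for Mt1 were also negative with Mt3. Gjb6 had -0.259 and -0.415 with Mt3, Nkx6-2 had -0.256 and -0.204, and Slc1a3 had -0.157 and -0.320. Tet3 and Itih3 were likewise below 0 with Mt1 on both plates.

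Genes that sense, carry or respond to metals and stress were looked at as 8 lists. Of their 132 genes, 25 reached detection in 50% of the cells or more and 76 passed a mean of 20 CPM on both plates. A rho of at least 0.2 on both plates was found for 0 of these 76 with Mt1, 1 with Mt2 (Sod2) and 1 with Mt3 (Fth1, the ferritin heavy chain, 0.209 and 0.236). A rho of -0.2 or less on both plates was found for 0 of the 76 with each of Mt1, Mt2 and Mt3. Over all genes, a rho of at least 0.2 on both plates was reached by 0.157% with Mt1, 0.047% with Mt2 and 0.235% with Mt3. Counts of 0 or 1 among 76 genes are too small to compare with such shares, and no conclusion is drawn from them. Of the 76, 21 had a rho above 0 with Mt1 on both plates and 21 below 0 on both, which is 27.6% each, against 24.3% and 27.2% of all genes.

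Among 23 genes of metal sensing and zinc transport, Slc39a12, a zinc importer, was the most evenly present, at 2045 ± 1265 CPM and in 245 cells. Its rho with Mt1 was -0.027 on plate 2 and -0.092 on plate 3. Mtf1, the zinc sensor itself, was detected in only 27 cells at 15.0 ± 54.2 CPM, below the level needed for a correlation. Slc30a1, a zinc exporter and known target of MTF-1, was detected in 56 cells, and its rho with Mt1 was 0.007 and -0.051. The median rho of the 14 genes of this list that passed was -0.033 and -0.044 with Mt1 and -0.007 and -0.013 with Mt3, where the median of all genes was 0.012 and -0.025 with Mt1 and 0.005 and -0.026 with Mt3.

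For copper, Prnp, the prion protein, had 4766 ± 2361 CPM and a rho with Mt1 of -0.106 and -0.151. Sod1, the copper and zinc superoxide dismutase, had 214 ± 208 CPM, and its rho with Mt1 was 0.199 on plate 2 and -0.030 on plate 3. Atp7a, a copper-transporting ATPase, was detected in 35 cells, with 0.178 and 0.175 with Mt1 and 0.142 and 0.141 with Mt2. For iron, Fth1 had 842 ± 620 CPM and a rho with Mt1 of 0.106 and 0.331. Of the 8 copper genes that passed the level, 2 were above 0 with Mt1 on both plates and 2 below 0 on both. That is 25% each, near the 24.3% and 27.2% of all genes.

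Of 18 genes of the glucocorticoid receptor and its targets, 5 reached detection in 50% of the cells or more. The receptor gene Nr3c1 had 206 ± 299 CPM, with a rho of 0.159 and -0.175 with Mt1. Tsc22d3, a common target of the receptor, had 395 ± 488 CPM, with -0.017 and 0.028. Of 21 genes of the oxidative stress response, the antioxidant enzyme genes Prdx6 (1619 ± 1121 CPM, rho with Mt1 0.179 and 0.090) and Gstm1 (786 ± 504 CPM, 0.116 and -0.110) were among the most evenly detected. Stat3, the factor of interleukin-6 signalling, had 69.6 ± 181 CPM and 0.124 and -0.150. Of the 20 oxidative stress genes that passed the level, 8 (40%) had a rho above 0 with Mt1 on both plates. Below 0 on both were 3 (15%), against 24.3% above and 27.2% below over all genes. With Mt3 the numbers were 11 (55%) and 4 (20%), against 23.6% and 30.5% of all genes. Among those above 0 with Mt1 were Sod2 (0.191 and 0.128), Gstm5 (0.131 and 0.060) and Prdx1 (0.151 and 0.013). The 3 below 0 were Slc7a11 (-0.142 and -0.154), Gsr (-0.110 and -0.121) and Gss (-0.018 and -0.152). The remaining lists differed in direction with Mt1. Of 14 genes of metal sensing and zinc transport, 2 (14.3%) were above and 6 (42.9%) below. Of 11 glucocorticoid genes, 1 (9.09%) was above and 3 (27.3%) below. Of 7 interleukin-6 and STAT3 genes, 1 (14.3%) was above and 3 (42.9%) below. Iron handling had 4 of 8 (50%) above and 2 (25%) below, and hypoxia 2 of 5 (40%) above and 1 (20%) below. Of 3 immediate early and heat shock genes, 1 was above and 1 below.

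The summed level of the astrocyte markers had a rho with Mt1 of 0.023 on plate 2 and -0.080 on plate 3, with Mt2 of -0.063 and -0.013, and with Mt3 of 0.081 and -0.207. Over the sums of the 9 lists of other cell types, rho lay between -0.095 and 0.181 with Mt1 on plate 2 and between -0.165 and 0.114 on plate 3. With Mt2 the same range was -0.070 to 0.040 and -0.108 to 0.176, and with Mt3 it was -0.058 to 0.162 and -0.226 to 0.164. The lowest of these was the pericyte sum with Mt3 on plate 3, which was 0.005 on plate 2, and the highest was the fibroblast sum with Mt1 on plate 2, which was -0.075 on plate 3. Single astrocyte markers differed in sign. Aldoc had 0.310 and 0.090 with Mt1 and 0.283 and 0.149 with Mt3, Slc1a3 was among the most opposite genes, and Gja1, the main astrocyte gap junction gene, had 0.017 and 0.122 with Mt1.

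The genes on either side of the cluster were sparsely detected and had a lower rho with Mt1 than the members did. Bbs2, upstream of Mt4, was detected in 64 cells, and its rho with Mt1 was 0.193 on plate 2 and 0.114 on plate 3. Ogfod1 beyond it was detected in 40 cells and had -0.080 and 0.002. Nup93, downstream of Mt1, was detected in 55 cells and had 0.024 and 0.070. The next gene, Slc12a3, was detected in 1 cell. Each of the 3 neighbours with reads enough for a correlation was thus below all member pairs. The members were detected in 246 to 250 cells, and the part of sparse detection in the neighbours' low values was not tested. The annotated transcripts of the members share 0 stretches of 50 bases with each other or with another gene. Mt1 and Mt3 share 3 stretches of 25 bases, and Mt2 shares 13 of its 579 stretches of 25 bases (2.25%) with Pip5k1a.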

How the data were processed

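Values are raw read counts per gene and cell, deposited by the authors as whole numbers that were not normalized. The submitters' processing notes name STAR 2.4.2a and mm10. The sources used here do not give the counter, its strandedness, the gene models or how cells were filtered. A second deposited table was not used here. All 250 columns matched a sample by name (0 unmatched), and no cell was removed. CPM is the count divided by the cell's total and scaled to 1000000, detection is 10 CPM, and log values are log2(CPM + 1). Spearman's rho was computed within each plate, partial rho on rank residuals. The trend of squared CV is a loess with span 0.1. Intervals are exact (Clopper-Pearson, 95%). Genes entered correlations and the trend at a mean of 20 CPM on both plates.

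Named are the members, Mt4, their neighbours, for each member the 10 genes whose lower rho of the plates is highest and the 3 whose higher rho is lowest, and genes of the 8 pathway and 10 marker lists. Some genes under this rule are not reported here. The other genes named among the 100 pairs, and Pip5k1a, were chosen after their values were seen. The members and lists were chosen with earlier results of these data known. Gene models are GENCODE on GRCm38, and exon lengths matched 96.1% of the 6381 genes. RefSeq windows were found for all 4 metallothioneins. Scripts (Python 3.11.15, scipy 1.17.1, statsmodels 0.14.6) were tested on simulated data. Alternatives were other thresholds, scalings, lengths, thinning to 100000 reads, and leaving out 47 cells.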

Additional observations from a re-analysis of the deposited data

How the results depend on the processing

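Of 87 alternative values, 82 stayed close to the reported one and 5 moved. Only a rho could be counted as reversed, by a change of sign, and 0 were. Holding the remaining metallothionein constant is not among these 87 values. That adjustment did change the sign for Mt2 and Mt3 on plate 3 (-0.056). Close means within the exact 95% interval for a number of cells, within 1 SD between cells for a level or share, within 1.5 times for a number of genes or a ratio to the trend, and within 1 divided by the square root of the cells less 1 for a rho. The limit of 1 SD is wide, so a level or share could hardly leave it. For Mt2, median shares of 27.7% by all exons and 16.9% by the full-span mRNA count as close. The order of Mt2 and Mt3 still changed between those lengths. At 50 CPM, Mt2 was detected in 239 cells and all 3 genes together in 238. The median share of Mt1 was 57.1% when reads were not scaled by length. That of Mt3 was 36.0% with each gene's longest transcript as length, against 39.2% for Mt1. Given also the share of reads in genes under 1 kb, a setting chosen after the data were seen, rho of Mt1 and Mt3 on plate 2 was 0.461. The following ranges cover the settings among the 87 values and include Pearson correlations of log2(CPM + 1). For Mt1 and Mt2 the correlation lay between 0.449 and 0.532 on plate 2 and between 0.687 and 0.744 on plate 3. That of Mt1 and Mt3 lay between 0.461 and 0.578 and between 0.425 and 0.556. That of Mt2 and Mt3 lay between 0.329 and 0.446 and between 0.298 and 0.389. Of the 10 genes nearest to each member, 8 (Mt1), 7 (Mt2) and 8 (Mt3) were shared with the order by partial rho. No paired analysis was possible because all cells are in 1 group. With no named animals, spread between mice is unknown. Reads are not molecules, and median read counts per cell were 252 for Mt1, 72 for Mt2 and 110.5 for Mt3.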

Other observations

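Several subunits of the respiratory chain and ATP synthase stood near Mt1 and Mt3, so all such genes in the table were looked at together after their values had been seen, without a test. Of 69 that passed a mean of 20 CPM on both plates, 64 on plate 2 and 46 on plate 3 had a rho with Mt1 above 0, where 55.6% and 41.4% of all genes did. Their median rho with Mt1 was 0.144 on plate 2 and 0.047 on plate 3. With Mt3 the median was 0.132 and 0.104, and 61 and 52 genes were above 0, against 52.1% and 40.9% of all genes. With Mt2 it was lower, 0.067 and 0.023. Given total reads and genes detected, the medians were 0.130 and 0.065 with Mt1 and 0.119 and 0.140 with Mt3. Their median exon length was 1653 bp, against 5087 bp over all genes past the same level, and the part of length in these values was not tested.

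Well position was also set beside the members. The rho of Mt1 with the plate row was -0.195 on plate 2 and -0.226 on plate 3, and with the column 0.133 and 0.102. For Mt2 the row gave -0.111 and -0.190, and for Mt3 -0.088 and -0.157. The column gave 0.091 and -0.003 for Mt2 and 0.213 and -0.086 for Mt3. The part of position in the correlations between members was not tested.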
